A study of Talaromyces verruculosus with 6 samples.

Results

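The genes described here are the 200 shortest coding genes with introns annotated in the genome of a filamentous fungus, Talaromyces verruculosus (strain TS63-9). They were taken from 11326 annotated genes by ordering the 8818 genes with at least 2 exons by coding length and then by locus tag. Their coding lengths ran from 201 to 348 bp, with a median of 291 bp, against a median of 1284 bp over all genes. Mycelia of this strain were grown in basic medium for 24 h, either on pectin at 5 g/L (3 cultures) or with no pectin (3 control cultures), and poly-A selected RNA was sequenced as paired ends. No other difference between the groups is given, and all 6 cultures are of this strain.

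Pectin, a plant cell wall polymer rich in galacturonic acid, is broken down by many filamentous fungi with secreted enzymes. Introns of filamentous fungi are short, and the spliceosome removes them before the message is exported and translated. Messages for very short proteins in fungi are known to include small ribosomal proteins, small subunits of the respiratory chain, membrane proteolipids and small secreted proteins, and a very short open reading frame can also be an annotation that yields no protein. The files pair the locus tags with no gene names, so no function is given to any gene below.

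The limit of the set fell inside a group of genes of equal length. Of the genes with 348 bp of coding sequence, 2 were inside and 4 outside, and locus tag order decided between them. The last gene inside was ZTR_06685 on LHCL01000050, minus strand, positions 84700 to 85095, with 2 exons. The first gene outside was ZTR_06745 on LHCL01000039, plus strand, positions 41009 to 41434, also with 2 exons. Coding lengths were multiples of 3 in 100% of genes, so the models hold no UTRs.

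The short genes differed from longer ones in how much of the locus was intron. Of the 200, 97 had 2 exons, 60 had 3 and 43 had 4 or more. Introns were of ordinary size for this genome: the median of the mean intron length per gene was 67 bp, against 61.5 bp in all other genes with at least 2 exons. Because the exons were short, with a median of the mean exon length of 112 bp against 384 bp in the other genes with introns, introns took up 35.6% of the annotated span, against 12.9% in the other genes with introns. In 26 of the 200 genes (13%) the introns together were longer than the exons, and this held for 0.603% of the other genes with introns. These lengths are linked to the rule, which chose short coding sequences, and are given as a description.

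At the extreme, the shortest gene, ZTR_03123 on LHCL01000027, minus strand, positions 350413 to 351025, was annotated with 8 exons in 201 bp of coding sequence. It had 0 exon reads in every library. ZTR_00945 on LHCL01000004, minus strand, positions 915582 to 917075 carried the most exons, 19 in 243 bp, which is a mean exon length of 12.8 bp. It had 7 exon reads in all 6 libraries together and 98 reads outside its exons.

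The 200 genes lay on 90 of 286 contigs with at most 11 on a contig, 47.5% of them on the plus strand, and 3 pairs were direct neighbours. None of them overlapped a neighbouring annotation (0 of 200). As a share of each set, 5.5% of the short genes and 4.51% of all genes were the first or last annotated gene of a contig.

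Libraries held 10320372 to 11393959 reads on annotated exons, of which 101292 to 119224 lay in the 200 genes. All reads in these genes were uniquely mapped (100% in each library). With 0 reads, a library still allows a level of up to 0.263 to 0.291 CPM (reads per 1000000 exon reads, the value of 3 reads), which covers counting error only. Reads outside exons made up 14.2% to 19.9% of all gene reads per library, lower in each pectin library than in any control.

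Larger shares of the short genes than of the other genes with introns stood at very low and at high levels. Levels are given as RPKM, reads per kilobase of coding length and per 1000000 mapped reads, as the authors deposited them. By the mean over the 6 libraries, 65 of the 200 (32.5%) were under 1 RPKM and 41 (20.5%) were over 100 RPKM, against 23.2% and 9.41% of the other genes with introns. The 200 genes next in coding length had 23.5% under 1 RPKM and 23% over 100 RPKM, so the high share of abundant genes was found there too. The middle range, from 1 to 100 RPKM, held 94 short genes (47%). Exon reads were found in every library for 142 of the 200, in some libraries for 32 and in none for 26. Of these 26, 15 still had reads outside their exons and 11 had no reads of either kind. Per library, 76.5% to 80% of the short genes had at least 1 exon read, against 92.6% to 93.9% of the other genes with introns. The short genes were lower in 6 of 6 libraries, by a mean of 14.7 ± 1.31 percentage points (SD over 6 libraries, exact sign-flip permutation test, two-sided p = 0.031, the smallest that 6 libraries allow, adjusted p = 0.0417 over 4 measures). That test speaks of these libraries, since each holds the same genes. A shorter coding sequence gives fewer reads at the same RPKM, and the part of this in the lower share of genes with reads was not tested.

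Median and mean levels gave different pictures. The median RPKM of the short genes was 9.12 to 12.6 and that of the other genes with introns 9.14 to 11.8. The short genes were higher in 3 of 6 libraries (mean difference 0.832 ± 1.85 RPKM, SD, n = 6, exact sign-flip permutation test, two-sided p = 0.312, adjusted p = 0.312). These were the 3 pectin libraries, and the 3 controls were lower, so this SD and test pool 2 groups that differed in sign. The mean was 109 to 119 RPKM against 42.3 to 50.2 RPKM, higher in 6 of 6 libraries (exact sign-flip permutation test, p = 0.031). A few genes carried the mean. The 3 with the most exon reads held 30.7% and the 10 with the most held 56.3% of all exon reads of the 200. Among the 200 genes next in coding length these shares were close, at 28.8% and 52.1%.

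Among the short genes, those with more exons had higher levels. Genes with 2 exons had a median of 0.765 RPKM, those with 3 exons 23.9 RPKM and those with 4 or more exons 79.9 RPKM. More than 100 RPKM was reached by 5 of 97, 15 of 60 and 21 of 43 of them, and under 1 RPKM were 50, 13 and 2. The order was the same in each of the 6 libraries: the medians ran from 0.74 to 1.41 RPKM with 2 exons, from 20.6 to 27.9 RPKM with 3 and from 64.7 to 115 RPKM with 4 or more, and these ranges did not overlap. In the other genes with introns the medians were 10.04, 11.8 and 10.8 RPKM for the same classes. The 200 genes next in coding length, up to 429 bp, had the same order, at 4.97, 14.6 and 82.1 RPKM. Spearman's rho between exon number and RPKM was 0.522 over the 200 short genes and 0.00943 over the other genes with introns. These are correlations across genes, which share libraries and are not independent replicates.

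The same order was seen when reads outside exons were counted as well. All gene reads, per kilobase of annotated span and per 1000000 gene reads, had medians of 11.7 with 2 exons, 35.5 with 3 and 102 with 4 or more in the short genes, and 15.8, 17.2 and 14.6 in the other genes with introns. Within the 200, coding length did not order the levels: 4 groups of 50 genes, from shortest to longest, had medians of 8.77, 8.94, 21.5 and 10.7 RPKM (rho between coding length and RPKM 0.0789). The classes of exon number had similar median coding lengths of 285, 289.5 and 300 bp.

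**Figure D1:**
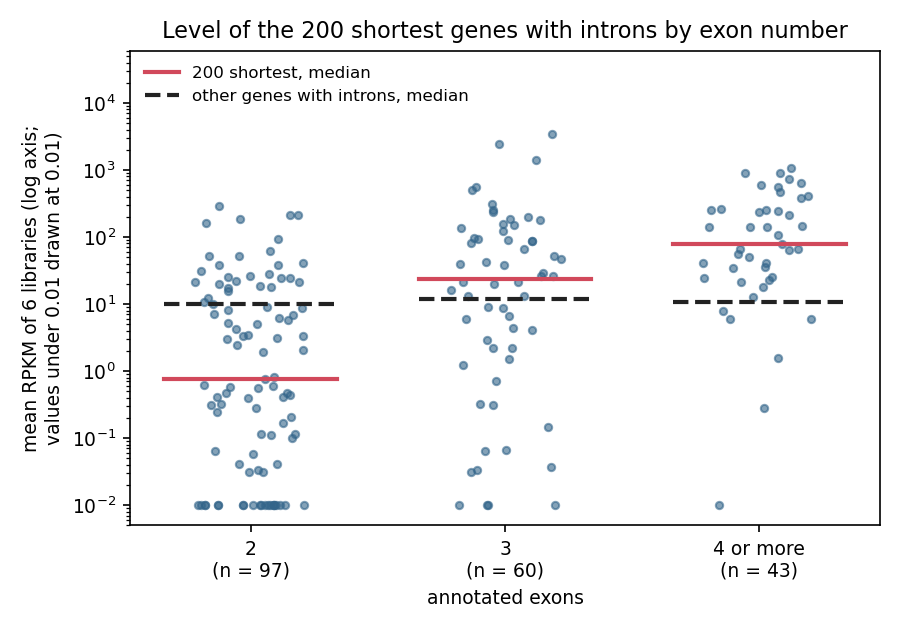
Mean RPKM over the 6 libraries (log axis) of each of the 200 shortest genes with introns, grouped by annotated exons, with the median of the short genes (solid line) and of all other genes with introns in the same class (dashed line). Values under 0.01 RPKM are drawn at 0.01. The solid lines stand at 0.765, 23.9 and 79.9 RPKM, while the dashed lines stay between 10.04 and 11.8 RPKM.

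Almost every exon read in the short genes crossed an exon-exon junction. Summed over the set, 93.8% to 95.8% of exon reads did so in each library, against 37.8% to 41.3% in the other genes with introns. The difference was 55.4 ± 1.68 percentage points (SD, n = 6 libraries), higher in 6 of 6 (exact sign-flip permutation test, two-sided p = 0.031, adjusted p = 0.0417). Per the labels, pairs of 150-base reads came from inserts of about 500 bp, and the median of the mean exon length in these genes was shorter than a read. The short exons are linked to the rule, and each library holds the same genes. The direction of this difference was thus largely set in advance, and its p-value is given as a description only. The 200 genes next in coding length were close, at 91.5% to 93.1%. Over the 130 short genes with at least 60 exon reads in all libraries together, the median was 99.7%, and in 46 of them every exon read crossed a junction. A share of at least 95% was found in 102 of the 130 (78.5%) and in 3.24% of the 7095 other genes with introns that had as many reads.

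For 5 of the 130 genes, all with 2 exons, fewer than 50% of exon reads crossed the annotated junction, and for 3 of these none did (2.31%, against 2.72% of the other genes with introns). In these 3 genes the annotated intron had no read that spanned it. ZTR_06685, the last gene inside the limit, was another of the 5, with 42 of 181 exon reads across its junction (23.2%).

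Reads outside annotated exons were also more frequent in the short genes. They took 27.3%, 32.1% and 27.8% of gene reads in controls 1, 2 and 3 and 24.1%, 25.4% and 23.1% in pectin libraries 1, 2 and 3. The other genes with introns had 13.2% to 18.3%, which was lower in each library, by 11.4 ± 1.51 percentage points on average (SD, n = 6, exact sign-flip permutation test, two-sided p = 0.031, adjusted p = 0.0417). The larger part of the span in introns is linked to the rule, and each library holds the same genes. This p-value is thus also given as a description only. The 200 genes next in coding length had similar shares in controls, 27.0%, 29.3% and 23.6%, and 18.7%, 19.2% and 17.5% on pectin. Such reads are also listed for genes without introns, so they are not intron reads alone: in the 200 shortest genes with 1 exon, up to 465 bp long, they took 70.0% to 79.9% of gene reads. The part of reads past the ends of the coding sequence in these shares was not tested.

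Among the 130 genes the share of reads outside exons ran from 0.758% to 99.5%, with quartiles at 9.43%, 26.9% and 55.0%. It was over 50% in 43 of them (33.1%) and in 5.19% of the other genes with introns. It was lower with more exons, with a median of 56.2% at 2 exons, 21.2% at 3 and 9.78% at 4 or more. It was also lower at higher levels, with a Spearman's rho of -0.657 between the share and RPKM over the 130 genes; exon reads enter both measures. The gene with the highest share had 2 exons and 240 bp of coding sequence, on LHCL01000023, minus strand, positions 243639 to 243962, and 72 exon reads beside 13154 reads outside its exons.

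**Figure D2:**
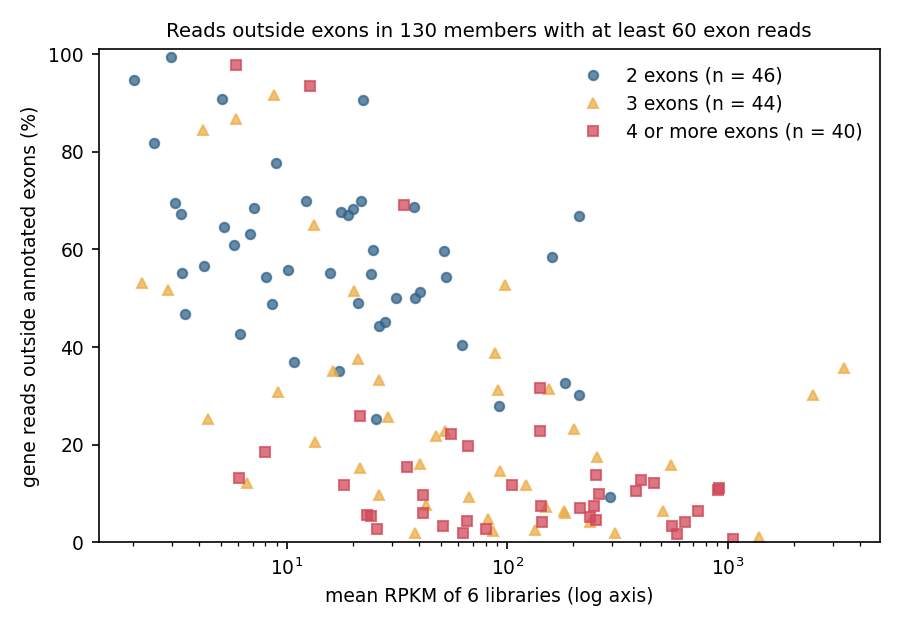
Percentage of gene reads outside annotated exons against mean RPKM over the 6 libraries (log axis) for the 130 of the 200 genes with at least 60 exon reads, marked by exon number. Genes with 4 or more exons gather at low shares (median 9.78%) and genes with 2 exons at high ones (median 56.2%).

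**Figure D3:**
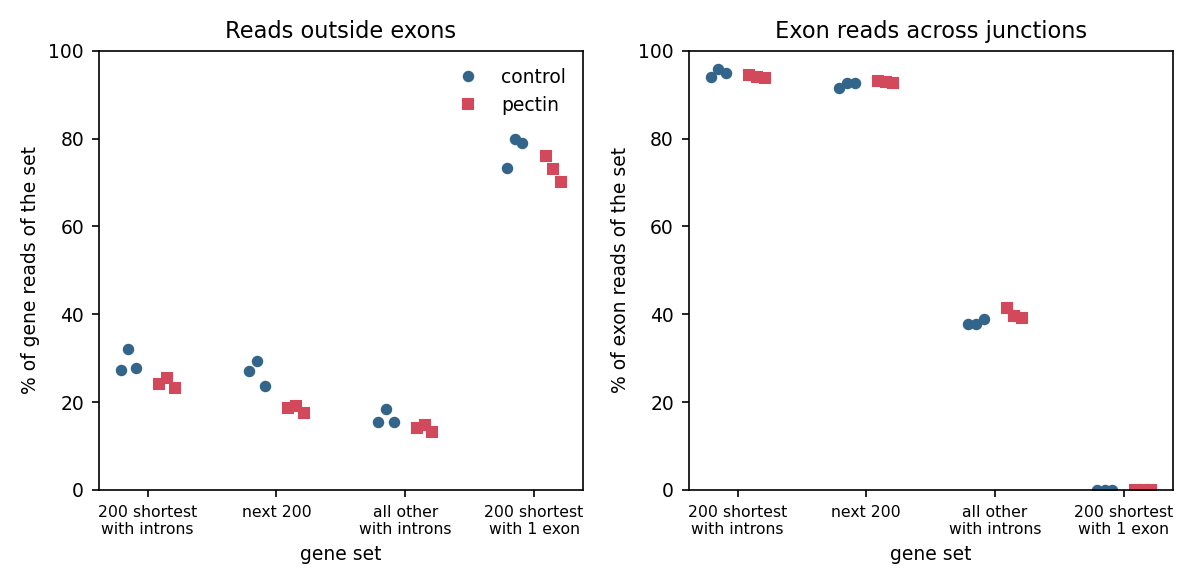
Percentage of gene reads outside exons (left) and of exon reads across exon-exon junctions (right) in each control and pectin library, for the 200 shortest genes with introns, the 200 next in coding length, all other genes with introns and the 200 shortest genes with 1 exon. Junction reads stand at 93.8% to 95.8% in the short genes and at 37.8% to 41.3% in all other genes with introns.

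On pectin, smaller shares of reads lay outside exons in the short genes, in the 200 next in coding length and in the other genes with introns. In the short genes it went from 29.1 ± 2.66% in control to 24.2 ± 1.13% on pectin (SD, n = 3 each, exact permutation test, two-sided p = 0.1, the smallest that 3 libraries against 3 allow), and each pectin library lay below every control. In the 200 genes next in coding length it went from 26.6 ± 2.86% to 18.4 ± 0.879%, and in the other genes with introns from 16.4 ± 1.67% to 14.0 ± 0.791% (SD, n = 3 each). The gap between the short genes and the other genes with introns was 12.6 ± 1.01 percentage points in control and 10.2 ± 0.360 on pectin (SD, n = 3 each, exact permutation test, two-sided p = 0.1). The share of exon reads across junctions in the short genes was 94.9 ± 0.883% in control and 94.1 ± 0.343% on pectin, and the groups overlapped (SD, n = 3 each, exact permutation test, two-sided p = 0.3). In the other genes with introns it was 38.2 ± 0.576% and 40.01 ± 1.16%.

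Gene by gene, 118 of the 200 had at least 60 reads of each type and were tested for a change in this share, relative to whole-library totals. On pectin 3 had a lower share and 1 a higher share (edgeR, adjusted p under 0.05), in a background of 8062 genes of which 0.732% were lower and 0.248% higher. The median log2 change of the ratio of reads outside exons to exon reads was -0.21 over the 118 genes and 0.0038 over all genes tested. The gene with the lowest p had 4 exons and 273 bp of coding sequence: its share was 26.9%, 35.8% and 24.8% in controls 1, 2 and 3 and 11.6%, 17.9% and 11.7% on pectin, a log2 change of -1.10, standard error 0.21 (edgeR adjusted p = 0.00755). All 3 pectin libraries lay below every control. The gene with the higher share had 5 exons and 309 bp of coding sequence, and nearly all its reads were outside exons, 92.2 ± 1.83% in control and 94.4 ± 0.493% on pectin (SD, n = 3 each, edgeR adjusted p = 0.0240), where the 6 libraries did not overlap between groups. These counts depended on single libraries: without control 2 they were 0 lower and 0 higher, without pectin 1 or pectin 2 they were 1 and 0, without control 3 or pectin 3 they were 4 and 0, and without control 1 they were 5 and 1.

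The question behind the comparison is which genes respond to pectin. Of the 200 short genes, 129 passed the filter on low counts and were tested. On pectin 25 were higher (19.4%) and 4 were lower (3.1%) with p under 0.05 after Benjamini-Hochberg adjustment over all 9177 genes tested (edgeR, quasi-likelihood). In that background 9.2% of genes were higher and 7% lower, and among the other genes with introns 9.66% and 6.96%. Among the 200 genes next in coding length, 146 were tested, of which 13.7% were higher and 5.48% lower (7.53% and 5.48% at 2-fold or more). The filter keeps a gene that is high enough in either group alone, so these shares do not stand for all 200 genes. In such bulk samples fewer cells of a type and less RNA per cell cannot be told apart.

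Most of the rises were modest. Of the 25 genes, 17 rose by less than 2-fold, the lowest by 1.54-fold, and the median was 1.88-fold. At 2-fold or more there were 8 higher genes (6.2% of those tested, background 6.08%) and 4 lower genes (3.1%, background 5.49%); of the other genes with introns 6.37% and 5.4% were. So the larger share of higher genes among the short ones lay below 2-fold. The median log2 fold change was 0.41 over the 129 genes and -0.0061 over all genes tested, and 100 of the 129 (77.5%) against 49.5% of all genes had a value above 0. By RPKM, 49 of the 129 (38.0%) had all 3 pectin libraries above every control, and 16 (12.4%) had all 3 below; over all genes tested the shares were 14.2% and 24.1%. A smaller shift was found in other short genes. The 146 tested of the 200 genes next in coding length had a median log2 fold change of 0.20, with 21.9% above and 13.7% below. The 95 tested of the 200 shortest genes without introns had a median of 0.21, with 14.7% and 16.8%. A median above 0 was thus not particular to the short genes with introns.

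The level of the median short gene relative to the other genes with introns showed a contrast in the same direction without a filter. The median RPKM of the 200 minus that of the other genes with introns was -0.175, -0.98 and -1.295 in controls 1, 2 and 3 and 2.17, 2.48 and 2.795 in pectin libraries 1, 2 and 3. It was below 0 in every control and above 0 in every pectin library (means -0.817 ± 0.578 and 2.48 ± 0.313 RPKM, SD, n = 3 each, exact permutation test, two-sided p = 0.1). Part of this lay in the other genes with introns, whose median went from 10.8 ± 0.895 to 9.64 ± 0.433 RPKM. The median of the short genes alone was 9.95 ± 1.44 in control and 12.1 ± 0.712 RPKM on pectin. Its groups overlapped (SD, n = 3 each, exact permutation test, two-sided p = 0.2). The share of all exon reads that fell in the 200 genes was 1.01 ± 0.0488% in control and 1.00 ± 0.0404% on pectin, and the groups overlapped (SD, n = 3 each, exact permutation test, two-sided p = 0.6). Without the gene with the most reads, described below, the pectin mean was higher by 0.0728 percentage points (exact permutation test, two-sided p = 0.1).

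Median changes were above 0 in every class of exon number. The median log2 fold change was 0.24 in the 45 tested genes with 2 exons, 0.47 in the 44 with 3 and 0.40 in the 40 with 4 or more, with 7, 7 and 11 genes higher and 2, 1 and 1 lower. In the other genes with introns the medians of these classes were -0.0234, 0.0083 and 0.0407. Over all their classes 9.66% were higher and 6.96% lower. By level, of short genes under 10 RPKM 1 of 27 was higher, from 10 to 100 RPKM 12 of 61 and over 100 RPKM 12 of 41, with medians of 0.27, 0.46 and 0.41. Over all genes tested the medians in these 3 ranges were -0.18, 0.042 and 0.30, and 6.75%, 8.36% and 22.7% were higher. Genes over 100 RPKM thus had the largest share of rises of these 3 ranges, and made up a larger share of the short genes than of all genes; the part of this in the count of 25 was not tested.

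**Figure D4:**
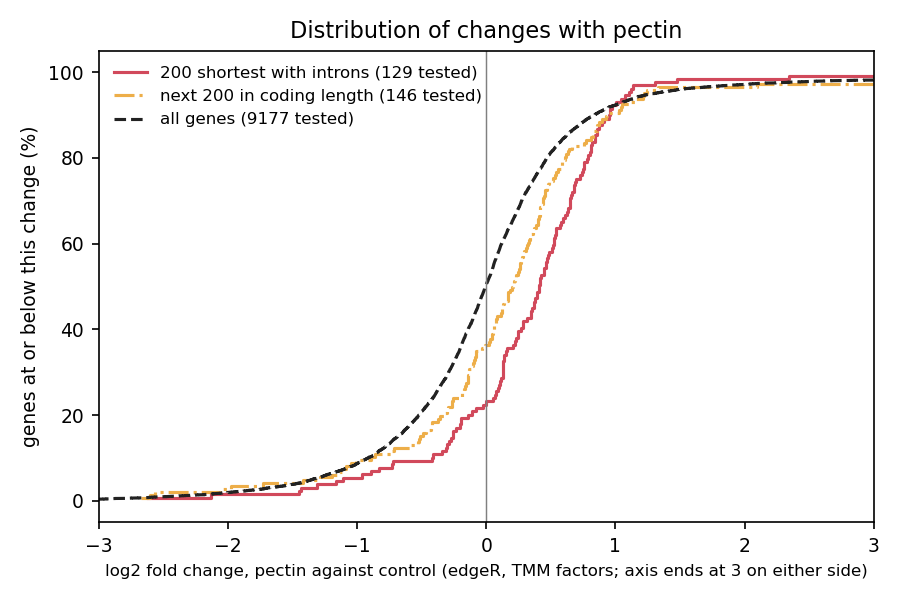
Cumulative share of genes by fitted log2 fold change on pectin (edgeR, TMM factors), for the 129 tested of the 200 shortest genes with introns, the 146 tested of the next 200 in coding length and all 9177 genes tested. The curve of the short genes lies to the right of that of all genes around its median of 0.41 and joins it near a log2 fold change of 1. The median of the next 200 was 0.20.

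These counts rested on single libraries and on the scaling. Without control 2 the short genes had 3 higher and 3 lower of 133 tested, beside 332 and 328 of 9300 over all genes. Without pectin 1 they had 6 and 3 of 133, beside 420 and 307 of 9306. Without pectin 2 they had 4 and 1 of 133, beside 325 and 190 of 9292. In these 3 fits the share of higher genes was no larger among the short genes than among all genes. Without control 1 they had 24 and 5 of 129, beside 929 and 707 of 9236. Without control 3 they had 15 and 10 of 131, beside 606 and 554 of 9307. Without pectin 3 they had 12 and 3 of 131, beside 689 and 419 of 9305. With all libraries 844 of 9177 genes were higher. With library size only in place of TMM factors 13 were higher and 4 lower of 129, beside 545 and 942 of 9177 genes. The median log2 fold change was then 0.20 over the short genes beside -0.21 over all genes. A change of scaling factors moves the log2 fold changes of all genes by about the same amount. The distance between the medians was therefore bound to stay about the same, and is no test of the scaling. Counting all gene reads in place of exon reads gave 21 higher and 9 lower of 155 tested, with medians of 0.26 and -0.0065; the share of reads outside exons moved on pectin as given above, and its part in the exon-read changes was not tested.

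The 3 most abundant of the short genes differed in how they stood on pectin. ZTR_02674, on LHCL01000001, minus strand, positions 1409701 to 1410083 with 3 exons and 267 bp of coding sequence, had 2909, 5636 and 4498 RPKM in controls 1, 2 and 3 and 2705, 1890 and 2686 RPKM in pectin libraries 1, 2 and 3. The controls spread widely, and although no pectin library reached the lowest control, the log2 fold change of -0.73 (standard error 0.34) did not pass the test (edgeR adjusted p = 0.186). Without control 1 it was -1.01 and passed (edgeR adjusted p = 0.0353), and over all alternatives the adjusted p ran from 0.0353 to 0.455. Reads outside exons made up 35.6% of its gene reads.

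ZTR_05200, on LHCL01000013, plus strand, positions 403686 to 404121 with 3 exons and 312 bp, had 2738, 2332 and 2270 RPKM in controls and 2498, 2468 and 2306 RPKM on pectin. The groups overlapped, with a log2 fold change of 0.14 (standard error 0.19, edgeR adjusted p = 0.675), which was -0.0777 with library size only. It was unlike most short genes in its junction reads, with 69.4% of exon reads across a junction.

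ZTR_01193, on LHCL01000002, minus strand, positions 478391 to 478732 with 3 exons and 216 bp, had 2527, 1839 and 1519 RPKM in controls and 870, 746 and 832 RPKM on pectin. Every pectin library lay below every control. It fell by 1.11 on the log2 scale (standard error 0.21, edgeR adjusted p = 0.0129), and the call was lost without pectin 2 (edgeR adjusted p = 0.0719, over all alternatives 1.29e-05 to 0.0719). All of its 30533 exon reads crossed a junction, and 1.05% of its gene reads lay outside exons.

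ZTR_04314 was the other abundant gene that fell. It lies on LHCL01000009, plus strand, positions 171976 to 172331, with 2 exons and 276 bp, and had 344, 399 and 545 RPKM in controls and 145, 158 and 173 RPKM on pectin. The groups were far apart, with a log2 fold change of -1.31 (standard error 0.22, edgeR adjusted p = 0.00932), and without pectin 2 the adjusted p was 0.0517, in a range of 1.05e-05 to 0.0517. The remaining 2 genes that fell had 2 exons with 345 bp and 4 exons with 294 bp. All 4 falls were between 2.15-fold and 4.39-fold, and in all 4 the RPKM values of the groups did not overlap. Since a test on the same libraries chose them, the lack of overlap adds no support.

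Of the genes that rose by at least 2-fold, ZTR_04923 was the most abundant. It lies on LHCL01000015, plus strand, positions 138798 to 139522, with 5 exons and 330 bp, and had 160, 158 and 221 RPKM in controls and 319, 352 and 310 RPKM on pectin. All pectin libraries lay above every control, with a log2 fold change of 1.00 (standard error 0.20, edgeR adjusted p = 0.0155). The call was lost without control 2 (edgeR adjusted p = 0.0675) and without pectin 2 (0.0708), in a range of 0.000322 to 0.0708. Over the alternatives its log2 fold change ran from 0.81 to 1.20, so its place at 2-fold or more depended on the processing. It was also among the 3 genes with a lower share of reads outside exons, at 6.92 ± 2.71% in control and 3.12 ± 0.564% on pectin (SD, n = 3 each, edgeR adjusted p = 0.0299).

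ZTR_08157, on LHCL01000029, plus strand, positions 239201 to 239860 with 3 exons and 207 bp, had 95.7, 102 and 121 RPKM in controls and 205, 222 and 183 RPKM on pectin. The groups did not overlap, with a log2 fold change of 1.08 (standard error 0.19, edgeR adjusted p = 0.0114). When all gene reads were counted the log2 fold change was 0.71 and the call was lost (edgeR adjusted p = 0.118), as it was without pectin 2 (0.0596), in a range of 4.78e-05 to 0.118. Its introns were long for this genome, with a mean of 226.5 bp, and 31.4% of its gene reads lay outside exons.

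**Figure D5:**
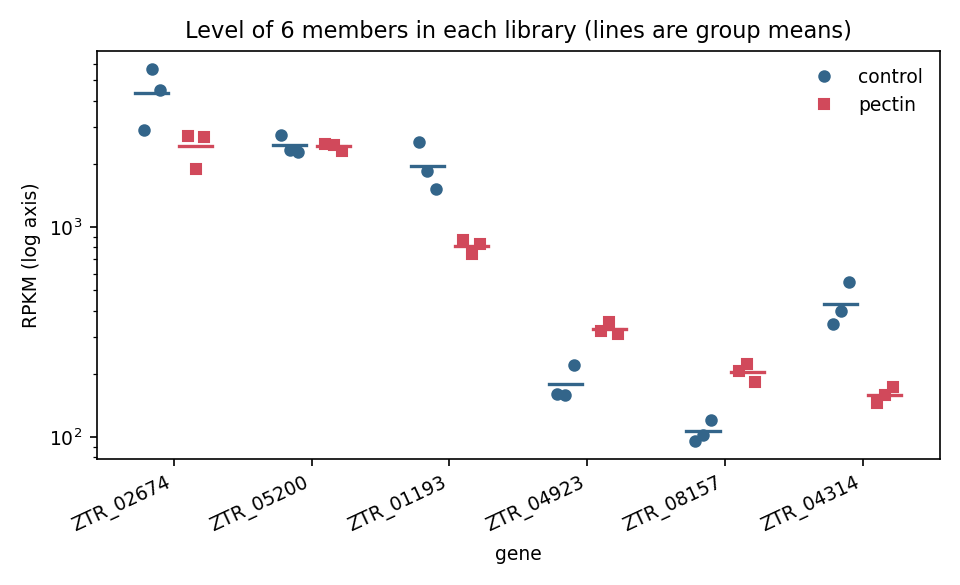
RPKM (log axis) of the 3 most abundant short genes and of the most abundant ones that rose or fell by at least 2-fold, in each control and pectin library, with lines at the group means. ZTR_01193 and ZTR_04314 were lower and ZTR_04923 and ZTR_08157 higher in all 3 pectin libraries, and the values of ZTR_05200 overlapped.

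The other rises spanned a wide range of levels. On pectin the 25 genes averaged from 4.91 to 1158 RPKM, and 16 of them were over 100 RPKM. In all 25 the pectin values lay above every control value. The test that chose these genes used the same libraries, so this adds no support to the calls. The largest rise, chosen here after its value was seen, was in the first annotated gene of LHCL01000275,, minus strand, positions 1875 to 2259, with 2 exons and 327 bp. It had 0.57, 0.34 and 1.75 RPKM in controls and 38.98, 44.1 and 47.64 RPKM on pectin, a 52.7-fold change (edgeR adjusted p = 0.000444). The control levels rest on few exon reads in a gene this short, so the size of the change is uncertain. It is 1 of the 3 genes without any read across the annotated junction (0 of 725 exon reads), and 90.6% of its gene reads lay outside exons. The only neighbouring gene, 1222 bp away on the same strand, rose as well, by 5.46 on the log2 scale (edgeR adjusted p = 0.000134).

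The next largest rise, 5.08-fold, was in the gene on LHCL01000023 with 99.5% of its reads outside exons, of whose 72 exon reads 2 crossed the junction. It went from 1.06 ± 0.321 to 4.91 ± 0.860 RPKM (SD, n = 3 each, edgeR adjusted p = 0.00873), and by 0.80 on the log2 scale when all gene reads were counted. All other rises were at most 2.20-fold. Among the 124 tested genes in which at least 50% of exon reads crossed a junction, 23 were higher and 4 lower. Over all 9177 genes tested 844 were higher and 642 lower. Neighbouring genes called in the same direction were found for 7 of the 29 called short genes (24.1%) and for 31.0% of all called genes.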

How the data were processed

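Per the labels' protocols, poly-T purified mRNA was made into libraries with random-hexamer priming and sequenced as paired ends. Aligner, counting tool, genome build and strand setting: not given in the sources used here. Without known strand, antisense reads cannot be told from a gene's own. Per the file headers, the authors deposited read counts per gene (exon, exon-exon junction, intron and total) and RPKM. The gene count is the sum of exon and intron reads. The RPKM values imply totals of 16.2 to 18.0 (in units of 1000000 reads) per library, more than the gene reads. Annotation was the same in all 6 files.

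R 4.3.3 with edgeR 4.0.16 tested total exon reads (quasi-likelihood, robust, TMM factors, filterByExpr by group), 9177 genes kept. A change in the share of reads outside exons was the group by read type interaction, blocked by library, each read type scaled to its own total. Both tests were tested on simulated data. Exact permutation tests ran over libraries. Alternatives used DESeq2 1.42.0, limma 3.58.1, other scalings and filters, a replicate block and left-out libraries. Other tools were Python 3.11.15, numpy 2.4.6, pandas 2.3.3 and matplotlib 3.10.9.

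The short genes, comparison sets and tests were chosen with earlier results of these data known. Genes were named by rule: the 3 highest by mean RPKM, the 2 per direction most abundant by CPM among changes of at least 2-fold, the shortest, those beside the limit and the one with most exons; others are given by position. Gene lists by function were not applied, since no descriptions were paired with the tags. Libraries of one group differed beyond sampling noise, by 34.4 to 139.5 in chi-square per degree of freedom over genes with at least 10 reads. The labels name 3 replicates per group, and p-values for pectin against control rest on the spread between these. The sign-flip tests over 6 libraries compare gene sets within libraries of both groups instead.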

Additional observations from a re-analysis of the deposited data

How the results depend on the processing

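The 25 higher and 4 lower genes, beside 844 and 642 over all genes, became 13 higher with library size only and with a filter of 10 CPM. Over all genes these settings gave 545 and 530 higher. Lower short genes numbered 7 with DESeq2's Wald test, 7 with the replicate block and 9 with total gene reads. Over all genes these numbers were 965, 1060 and 674. Against 8 and 4 at least 2-fold higher and lower, library size only gave 2 higher, upper-quartile factors 5, the 10 CPM filter 2 and total gene reads 4 higher and 9 lower. Over all genes 558 and 504 were at least 2-fold higher and lower. Library size only gave 386 higher there, upper-quartile factors 486, the 10 CPM filter 308 and total gene reads 563 higher and 533 lower. Leaving out 1 library gave 3 to 24 higher, 1 to 10 lower, 3 to 10 at least 2-fold higher and 1 to 9 at least 2-fold lower, and 0 to 5 genes with a lower and 0 to 1 with a higher share of reads outside exons. Over all genes the fits without 1 library gave 325 to 929 higher and 190 to 707 lower. There 315 to 603 genes were at least 2-fold higher and 186 to 514 at least 2-fold lower. Of all genes, 23 to 59 had a lower and 9 to 30 a higher share of reads outside exons. Fewer genes tested or fewer libraries can lower such counts by construction. Otherwise the cause was not tested. The remaining alternatives kept the counts of short genes within 1.5 times. The change in the share of exon reads across junctions, which did not pass the test, was -0.839 percentage points and ran from -0.109 (400 shortest genes) to -1.30 (without control 1). None of the 29 called genes changed sign in any alternative (0 of 29), and 2 were called in all 16; another was called in the 15 that tested it. For the share of exon reads in the short genes, a difference of -0.0136 percentage points, the sign reversed without the most abundant gene (0.0728, chosen after seeing the data), without control 2 (0.0145) and without pectin 3 (0.00178); over single left-out libraries it ran from -0.0365 to 0.0145. ZTR_05200 reversed to -0.0777 with library size only. The mean in place of the median RPKM gave a difference of 66.7 that passed the test.

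Replicate numbers are shared between groups but are not said to mark pairs. Over all genes tested, correlations between deviations of libraries with the same number were 0.468, 0.066 and 0.423, and control 2 correlated best with pectin 3 (0.348). Over the short genes tested these values were 0.291, 0.0612 and 0.18, with 0.162 for control 2 and pectin 3. With the replicate block 36 short genes were higher and 7 lower, beside 1163 and 1060 over all genes. The difference in reads outside exons in the short genes was -4.85 percentage points as without the block (exact sign-flip p = 0.25, the smallest that 3 pairs allow). The restriction to genes with reads across junctions was chosen after seeing the data. Of the 71 genes not tested, 45 had exon reads, too few for the filter.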
